A study of Mus musculus and Sus scrofa with 30 samples.

Results

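The insulin-like growth factors, their receptors and their binding proteins were followed in mouse and pig cells on the way to becoming fat cells. The 10 genes, chosen by symbol, were IGF1 and IGF2, the receptors IGF1R and IGF2R, and the binding proteins IGFBP2 to IGFBP7. All 10 were found among the 24843 genes of the mouse table and 9 among the 34307 genes of the pig table, 19 rows of 59150; pig IGF2 is not analysed here. The mouse system was 3T3-L1, a line of embryonic fibroblasts that can become adipocytes, induced in 10% serum with dexamethasone (75 nM), IBMX (37.5 µM) and insulin (0.75 µg/mL). The pig system was dedifferentiated fat (DFAT) cells from subcutaneous fat, which have gone back to a dividing, fibroblast-like state. These were induced in 2% serum with biotin (20 µM), IBMX (12.5 µM), pantothenate (10 µM) and dexamethasone (0.5 µM), and insulin is not among the additives named in the labels. Each system had 5 groups of 3 bulk RNA-seq libraries from day 5: DMSO vehicle, dicoumarol (a coumarin that blocks vitamin K recycling), magnolol (a lignan of magnolia bark), dicoumarol together with magnolol, and rosiglitazone (a drug that activates the fat cell receptor PPARγ). The sources used here give no doses of the compounds and do not say whether the libraries of a group came from separate cultures, so p-values measure only the spread between these libraries.

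IGF1 and IGF2 are small secreted hormones that bind IGF1R, a tyrosine kinase receptor that works through IRS adaptor proteins and the PI3K and AKT kinases. IGF2R, also the receptor for mannose 6-phosphate, takes up IGF2 for breakdown and sends no kinase signal. The binding proteins hold IGFs outside the cell, and proteases such as PAPPA, itself blocked by the stanniocalcins, set them free. Preadipocytes carry many IGF1 receptors, and insulin at the high concentrations of induction mixes can act through them.

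Values are the authors' counts divided by DESeq2 size factors (normalized counts), and fold changes are limma estimates on log2(normalized count + 1), which understates changes of low genes. A gene was called at a Benjamini-Hochberg adjusted p under 0.05 over all genes of its table with a mean of at least 10, 15723 in 3T3-L1 and 14819 in DFAT. In 3T3-L1, 9 of the 10 genes passed that minimum, and in DFAT all 9 did. The 3T3-L1 libraries held an estimated 22.8 to 30.7 M reads and the DFAT libraries 44.8 to 70.5 M. The labelled cells carried their markers: summed over 8 adipocyte markers, normalized counts were 44205 to 62112 with vehicle and 321407 to 565835 with rosiglitazone in 3T3-L1, and 18489 to 21420 and 76446 to 83524 in DFAT. Fibroblast markers summed to 157994 to 308715 over all 3T3-L1 libraries and to 1452510 to 3424010 over all DFAT libraries. Sums over immune, endothelial and muscle markers were at most 239 in any library. All comparisons with vehicle within a system share the same 3 vehicle libraries. Libraries with the same replicate number varied together in 3T3-L1, so values from a fit with the number as a block are given there where they change a call.

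Of the mouse genes, 3 fell with rosiglitazone under all 13 alternative analyses: Igf1, Igf1r and Igfbp5. Their proximal promoters are printed here because these are the genes on which the mouse results turn. The windows run from 250 bases before the annotated start up to the start, are from RefSeq on GRCm38.p6 and read 5′ to 3′ on the gene's own strand. Capitals mark matches, on either strand, of the hexamer bound by nuclear receptors (AGGTCA) or a GC box (GGGCGG); a C/EBP motif (TTGCNNAA) and a TATA box (TATAAA) were also searched and are not in these 3 windows.
Igf1 promoter, chr10:87860861-87861110, plus strand: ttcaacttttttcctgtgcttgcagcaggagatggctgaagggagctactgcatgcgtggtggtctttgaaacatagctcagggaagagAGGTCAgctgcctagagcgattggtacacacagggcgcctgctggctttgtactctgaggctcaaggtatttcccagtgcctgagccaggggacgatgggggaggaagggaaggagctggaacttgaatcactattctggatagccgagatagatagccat
Igf1r promoter, chr7:67952007-67952256, plus strand: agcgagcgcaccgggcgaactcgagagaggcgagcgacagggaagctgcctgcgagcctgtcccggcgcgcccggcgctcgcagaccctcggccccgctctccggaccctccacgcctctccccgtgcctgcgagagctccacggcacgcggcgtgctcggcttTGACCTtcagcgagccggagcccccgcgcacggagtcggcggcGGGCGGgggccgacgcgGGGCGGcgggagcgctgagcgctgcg
Igfbp5 promoter, chr1:72874866-72875115, minus strand: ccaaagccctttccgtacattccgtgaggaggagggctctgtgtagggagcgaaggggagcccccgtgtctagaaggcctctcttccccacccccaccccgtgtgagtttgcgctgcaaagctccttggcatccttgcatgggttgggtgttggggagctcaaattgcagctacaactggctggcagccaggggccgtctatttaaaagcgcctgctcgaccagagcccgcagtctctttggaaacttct
The hexamer lies 161 bases before the Igf1 start and, on the opposite strand, 86 bases before the Igf1r start. Igfbp5 has none of the 4 motifs in its window. Of the 32851 promoter windows of this length, 14.0% hold the hexamer, 32.7% the GC box, 12.4% the TATA box and 9.56% the C/EBP motif. The hexamer is also in the windows of Igf2r, 11 bases before the start, and of 1 of the 4 Igf2 starts. The Igf1r window is 77.6% G and C, against 52.8% for Igf1, 58.8% for Igfbp5 and a median of 52.4% over all windows.

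In 3T3-L1 cells the binding proteins Igfbp7 and Igfbp4 and the receptor Igf2r had the highest levels of the family, and both ligands were far lower. Per kilobase of exon, vehicle levels were 4550 ± 663 (SD, n = 3) normalized counts for Igfbp7, 2446 ± 311 for Igfbp4 and 2202 ± 165 for Igf2r. Igfbp3 followed with 656 ± 306 per kilobase, then Igf1r with 206 ± 13.1, Igfbp6 with 136 ± 24.1 and Igf1 with 103 ± 35.7. Igfbp4 and Igf2r lay within 1 SD of each other on this scale, and so did Igfbp6 and Igf1. Igf2, at 22.4 ± 1.41 per kilobase, and Igfbp5, at 4.61 ± 1.70, were low, and Igfbp2 was at the limit of detection with 0.371 ± 0.329. For pig genes no exon lengths were used, so their levels are compared only across conditions and not between genes.

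**Figure D1:**
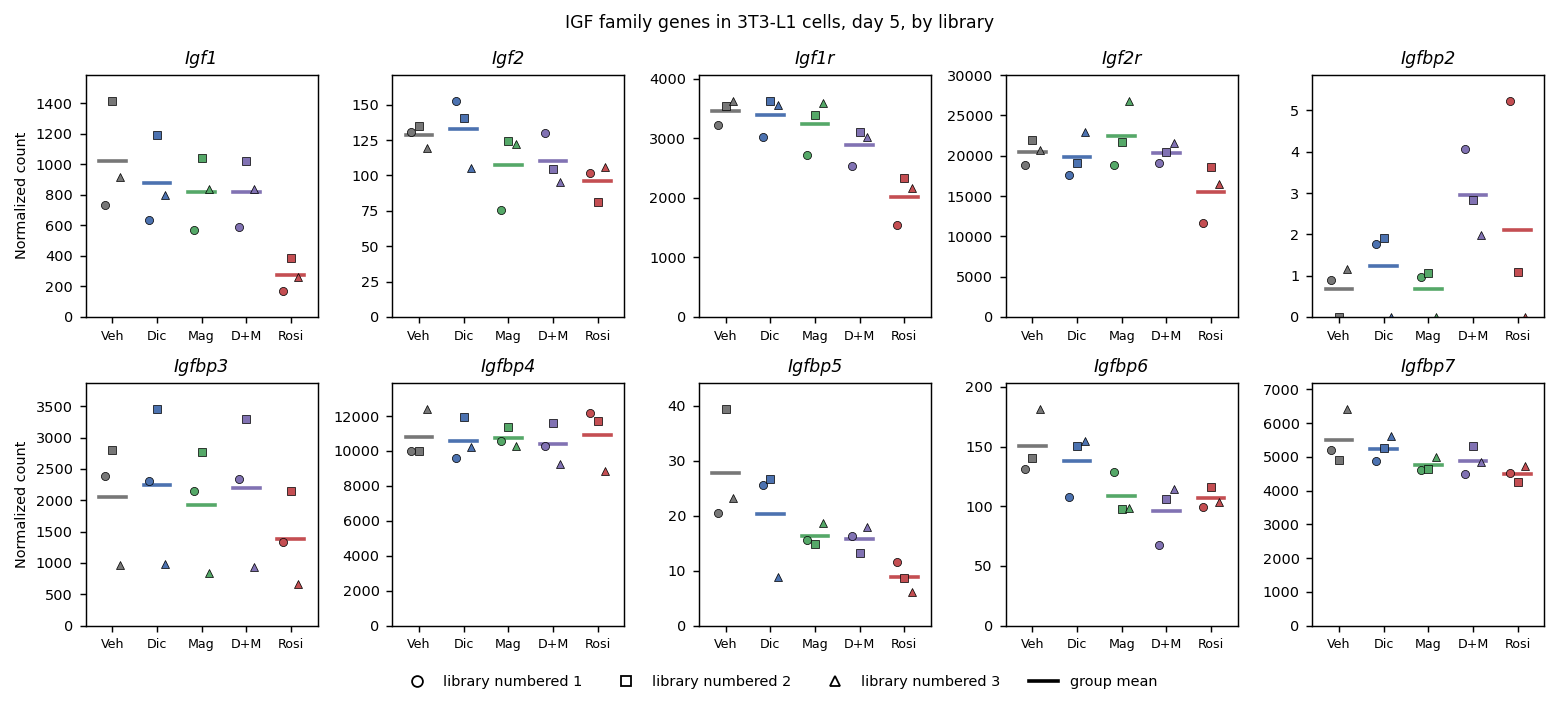
Normalized counts (linear y axes from 0) of the 10 genes in 3T3-L1 cells, 1 panel per gene, with the 5 groups on the x axis (Veh, vehicle; Dic, dicoumarol; Mag, magnolol; D+M, both; Rosi, rosiglitazone). Points are single libraries, shapes give the replicate number and bars are means of 3. The rosiglitazone points of Igf1 (173 to 385) lie below all other points of that gene, and the libraries numbered 3 of Igfbp3 (663 to 988) lie below the other 10.

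Without the replicate block, rosiglitazone was the only treatment with calls against vehicle in the mouse family, and every call was a fall. Of 9 genes tested, 5 were lower and 0 higher than with vehicle, where 40.1% of all tested genes were called, 20.3% higher and 19.9% lower. The calls of Igf2r and Igfbp7 were lost in 9 and 8 of 13 alternatives. The replicate block kept both and added Igfbp3 and Igfbp6, which gave 7 of 9, all lower. The share of all genes called with the block in this comparison is not given here. The median log2 fold change of the 9 genes was -0.49, against -0.00 for all genes. In bulk samples fewer cells of a type and less RNA per cell cannot be told apart. Over the same groups, 8 of 8 adipocyte markers rose and 6 of 7 fibroblast markers fell, among them the preadipocyte gene Dlk1 (23688 to 10759 normalized counts on average), and the mitochondrial share went from 5.22% to 7.00% of counts with vehicle to 7.66% to 14.3%. The part of these shifts in the falls of the IGF genes was not tested.

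Igf1 (ENSMUSG00000020053, chromosome 10, 87694127 to 87772904, plus strand, as deposited), the main ligand, had 735, 1418 and 918 normalized counts with vehicle and 173, 385 and 263 with rosiglitazone. The groups did not overlap. The fall was 3.78-fold (log2 -1.92, SE 0.32, adjusted p = 0.000196). With dicoumarol the libraries had 633, 1193 and 797, with magnolol 569, 1041 and 840, and with both 588, 1021 and 839. All 3 of those groups overlapped vehicle and none was called. In each of the 5 groups the library numbered 2 was the highest and the one numbered 1 the lowest. With the replicate block, Igf1 was also called lower with dicoumarol plus magnolol (log2 -0.31, SE 0.088, adjusted p = 0.0279).

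Igf2 (ENSMUSG00000048583, chromosome 7, 142204503 to 142220553, minus strand) was the lesser ligand, at 75.3 to 153 normalized counts over all 15 libraries. Group means were 128 ± 8.06 with vehicle, 133 ± 24.9 with dicoumarol, 107 ± 27.6 with magnolol, 110 ± 17.6 with both and 96.3 ± 13.5 with rosiglitazone (SD, n = 3). The rosiglitazone libraries lay below the vehicle libraries, but the difference was not called (log2 -0.42, SE 0.21, adjusted p = 0.118).

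Igf1r (ENSMUSG00000005533, chromosome 7, 67602575 to 67883416, plus strand), the signalling receptor, had 3217, 3542 and 3636 normalized counts with vehicle and 1549, 2335 and 2164 with rosiglitazone. It fell 1.74-fold (log2 -0.80, SE 0.14, adjusted p = 0.000386), with no overlap. The other libraries had 3021, 3619 and 3556 with dicoumarol, 2723, 3387 and 3600 with magnolol, and 2535, 3110 and 3021 with both compounds. The 3 libraries given both lay below all vehicle libraries. That difference was called only with the replicate block (log2 -0.27, SE 0.076, adjusted p = 0.0291) and not without it (adjusted p = 0.379).

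Igf2r (ENSMUSG00000023830, chromosome 17, 12901293 to 12988551, minus strand), the clearance receptor, had 18885, 21951 and 20661 normalized counts with vehicle and 11614, 18595 and 16447 with rosiglitazone. The groups stood apart by the width between 18595 and 18885. The call was narrow (log2 -0.42, SE 0.16, adjusted p = 0.0459) and was lost in 9 of 13 alternatives, though not with the replicate block. It was lost on leaving out any vehicle library (adjusted p = 0.0517 without replicate 1, 0.134 without replicate 2 and 0.0902 without replicate 3), rosiglitazone replicate 1 (0.250) or rosiglitazone replicate 3 (0.0543). Without rosiglitazone replicate 1, the lowest library, the log2 change was -0.23. Over the other groups Igf2r ranged from 17590 to 26860, with no call. Igf2r and Igf2 lie over antisense transcripts, and whether strand was used in counting is not stated in the labels.

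Among the binding proteins, Igfbp5 (ENSMUSG00000026185, chromosome 1, 72897091 to 72914043, minus strand) showed the largest fall, from a low level. It had 20.5, 39.4 and 23.2 normalized counts with vehicle and 11.5, 8.70 and 6.17 with rosiglitazone. The groups did not overlap, and the fall was 2.89-fold (log2 -1.53, SE 0.39, adjusted p = 0.00554). The libraries had 25.6, 26.7 and 8.78 with dicoumarol, 15.5, 14.8 and 18.6 with magnolol, and 16.2, 13.2 and 17.9 with both compounds. The last 2 groups lay below all vehicle libraries without being called (adjusted p = 0.620 and 0.378).

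Igfbp7 (ENSMUSG00000036256, chromosome 5, 77497087 to 77555888, minus strand), a matrix-associated protein that binds IGFs weakly, had 5192, 4901 and 6411 normalized counts with vehicle and 4509, 4243 and 4717 with rosiglitazone. The fall was small, 1.22-fold (log2 -0.28, SE 0.10, adjusted p = 0.0358). Its call was lost in 8 of 13 alternatives, though not with the replicate block. Leaving out vehicle replicate 3, the highest library, gave a log2 change of -0.17 and an adjusted p of 0.180. Leaving out rosiglitazone replicate 1 or 2 gave adjusted p = 0.0688 and 0.0959. The other 3 treated groups ranged from 4489 to 5617.

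Igfbp3 (ENSMUSG00000020427, chromosome 11, 7156086 to 7163923, minus strand), the main carrier of IGFs in blood, followed the replicate number more than the treatment. The libraries numbered 1, 2 and 3 had 2381, 2807 and 974 normalized counts with vehicle, 2311, 3451 and 988 with dicoumarol, 2153, 2769 and 837 with magnolol, 2340, 3292 and 934 with both, and 1337, 2143 and 663 with rosiglitazone. Within each number the rosiglitazone library was the lowest of the 5. Without the block the fall was not called (log2 -0.59, SE 0.58, adjusted p = 0.444), and with the block it was (SE 0.083, adjusted p = 2.19e-05).

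Igfbp4 (ENSMUSG00000017493, chromosome 11, 98932070 to 98945218, plus strand), an inhibitor of IGF action that PAPPA cleaves, was level, with group means of 10372 to 10914 normalized counts and a log2 difference of 0.01 (95% interval -0.27 to 0.29) with rosiglitazone. Igfbp6 (ENSMUSG00000023046, chromosome 15, 102052797 to 102057946, plus strand), which prefers IGF2, averaged 151 ± 26.8 normalized counts with vehicle, 138 ± 26.1 with dicoumarol, 109 ± 17.6 with magnolol, 96.0 ± 24.7 with both and 107 ± 8.73 with rosiglitazone. It was called lower only with the block, with both compounds (log2 -0.67, SE 0.19, adjusted p = 0.0244) and with rosiglitazone (log2 -0.49, SE 0.19, adjusted p = 0.0394). Igfbp2 (ENSMUSG00000039323, chromosome 1, 72863662 to 72891633, plus strand) reached at most 5.24 normalized counts in any library and was not tested.

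With dicoumarol limma called 0 of the 9 mouse genes, 0 at an unadjusted p under 0.05, against a background of 0% of all genes. With magnolol it called 0, and 1 at an unadjusted p, against 1.23%. With both compounds 0 were called, and 1 at an unadjusted p, against 5.22%. The block called 3, Igf1, Igf1r and Igfbp6, all lower. Over all 15723 tested genes the block called 2124 in that comparison, against 821 without it. Dicoumarol plus magnolol against dicoumarol gave 0 calls and 1 at an unadjusted p, where 0.0254% of genes were called. Against magnolol it gave 0 calls and 0 at an unadjusted p, with a background of 0%. Rosiglitazone against the combination gave 2 lower and 0 higher, with a background of 18.3%, 9.53% higher and 8.78% lower. These were Igf1 (log2 -1.61, SE 0.32, adjusted p = 0.00415) and Igf1r (log2 -0.54, SE 0.14, adjusted p = 0.0188). The Igf1r call was lost without combination replicate 2 (adjusted p = 0.0684), combination replicate 3 (0.0649) or rosiglitazone replicate 1 (0.102). The block gave 4, with Igf2r (log2 -0.41, adjusted p = 0.00775) and Igfbp3 (log2 -0.64, adjusted p = 4.72e-05) besides. The background of 18.3% is from the fit without the block. With the block 5234 of all 15723 tested genes were called in this comparison, against 2879 without it.

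In DFAT cells the calls were spread over the 4 treatments. IGF1 was lower with all 4, IGFBP2 was lower with 3 and IGFBP5 was higher with 2, while IGFBP3 and IGFBP4 moved with rosiglitazone. IGF1R, IGF2R, IGFBP6 and IGFBP7 were not called against vehicle. Dicoumarol gave 2 lower and 0 higher of 9, with 1.94% of all genes called, 0.911% higher and 1.03% lower. Magnolol gave 1 higher and 2 lower against a background of 4.22% (2.96% higher, 1.27% lower), and the combination 1 higher and 2 lower against 10.2% (6.11% higher, 4.06% lower). Rosiglitazone gave 1 higher and 2 lower against 10.8% (5.8% higher, 5.02% lower). Median log2 fold changes over the 9 genes were -0.04, 0.02, -0.01 and -0.11 in that order, against medians of all genes between -0.01 and 0.00.

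**Figure D2:**
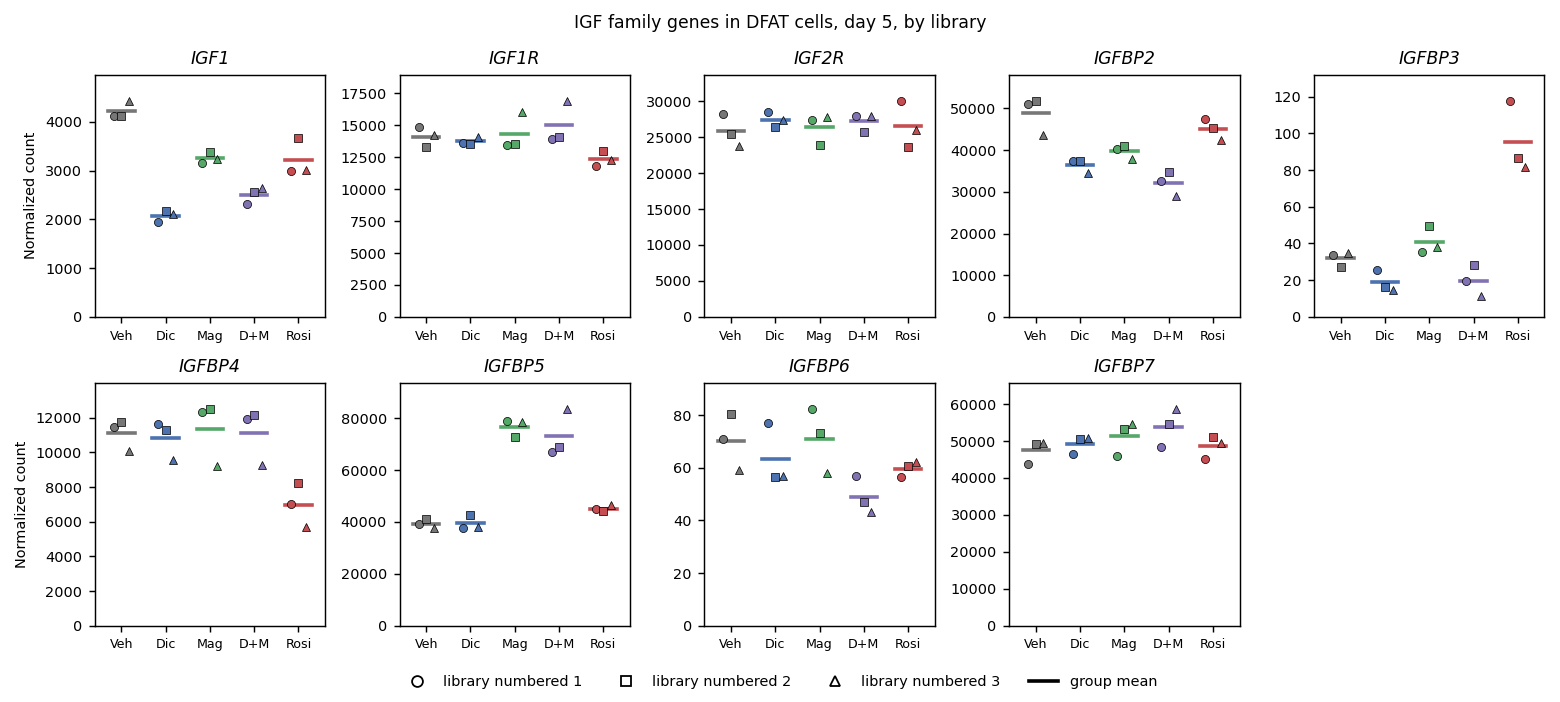
Normalized counts (linear y axes from 0) of the 9 pig genes in DFAT cells, with groups, shapes and bars as in the mouse panels. IGFBP5 lies between 66913 and 83473 in the 6 libraries given magnolol, alone or with dicoumarol, and between 37533 and 46435 in the other 9.

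IGF1 (ENSSSCG00000000857, chromosome 5, 81775970 to 81848033, plus strand, as deposited) had 4117, 4123 and 4438 normalized counts with vehicle. With dicoumarol it had 1942, 2168 and 2103, a 2.04-fold fall (log2 -1.03, SE 0.078, adjusted p = 4.6e-07). With both compounds it had 2317, 2556 and 2640 (log2 -0.76, SE 0.078, adjusted p = 3.79e-06). None of the treated libraries reached the vehicle level. With magnolol the libraries had 3166, 3372 and 3230 (log2 -0.38, adjusted p = 0.00754), and with rosiglitazone 2987, 3674 and 3003 (log2 -0.40, adjusted p = 0.0022). Ordered by mean, dicoumarol (2071 ± 116) was lowest, then the combination (2504 ± 168), rosiglitazone (3222 ± 392), magnolol (3256 ± 105) and vehicle (4226 ± 184; SD, n = 3). Rosiglitazone and magnolol overlapped. The combination lay above dicoumarol alone in all libraries, but this was not called (log2 0.27, SE 0.078, adjusted p = 0.0865). It lay below magnolol alone (log2 -0.38, SE 0.078, adjusted p = 0.0291).

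The combination's IGF1 difference from magnolol was the only call of 9 in that comparison, where 0.621% of genes were called, 0.385% higher and 0.236% lower. It was lost in 8 of 12 alternatives. Without magnolol replicate 1, 2 or 3 the adjusted p was 0.0941, 0.141 and 0.0896, and without combination replicate 1 or 2 it was 0.186 and 0.0714. The replicate numbers paired the magnolol, combination and rosiglitazone libraries in DFAT, and with the block IGFBP2 was called lower too (log2 -0.31, adjusted p = 0.00306), making 2. Over all 14819 tested genes the block called 290 in that comparison, against 92 without it.

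IGFBP5 (ENSSSCG00000025924, chromosome 15, 118857625 to 118878120, minus strand), a matrix-bound carrier, had 39082, 40974 and 37533 normalized counts with vehicle and 78939, 72934 and 78522 with magnolol. It rose 1.96-fold (log2 0.97, SE 0.081, adjusted p = 6.78e-07). With both compounds it had 66913, 68964 and 83473, 1.86-fold above vehicle (log2 0.89, SE 0.081, adjusted p = 8.62e-07). The 6 libraries given magnolol lay above all 9 others. With dicoumarol it had 37818, 42677 and 38215 (log2 0.01, 95% interval -0.16 to 0.18), which overlapped vehicle. With rosiglitazone it had 44810, 44276 and 46435, above every vehicle library but not called (log2 0.21, SE 0.081, adjusted p = 0.131). IGFBP5 went from 0.0673% of all counts with vehicle to 0.120% with magnolol.

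The rise in IGFBP5 was the only call of 9 when the combination was set against dicoumarol (log2 0.88, SE 0.081, adjusted p = 2.79e-06), where 2.35% of genes were called, 2% higher and 0.344% lower. The combination and magnolol alone did not differ detectably (log2 -0.08, 95% interval -0.25 to 0.09). Summed fibroblast markers also rose with magnolol, from 1821040 to 1962890 normalized counts with vehicle to 2916850 to 3424010 with magnolol and 2952920 to 3416830 with both. They were 2582030 to 2716860 with dicoumarol, where IGFBP5 overlapped vehicle. With rosiglitazone they were 1452510 to 1609900, below vehicle, while IGFBP5 lay above every vehicle library. Of 5 fibroblast markers tested, COL1A1 and COL1A2 rose and PDGFRA fell with magnolol; these were named after their values were seen. Their part in the IGFBP5 result was not tested.

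IGFBP2 (ENSSSCG00000035392, chromosome 15, 118822047 to 118850976, plus strand), which preadipocytes and adipocytes secrete, lies next to IGFBP5, on the other strand, and went the other way with magnolol. It had 51037, 51903 and 43520 normalized counts with vehicle, 37362, 37379 and 34423 with dicoumarol, 40324, 41004 and 37821 with magnolol, and 32520, 34757 and 29061 with both. All 9 of those treated libraries lay below the vehicle libraries. The fall was 1.52-fold with both compounds (log2 -0.60, SE 0.081, adjusted p = 6.78e-05), 1.34-fold with dicoumarol (log2 -0.42, adjusted p = 0.00807) and 1.23-fold with magnolol (log2 -0.29, adjusted p = 0.0491). With rosiglitazone it had 47374, 45374 and 42420, which overlapped vehicle (log2 -0.11, 95% interval -0.28 to 0.06).

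The dicoumarol call for IGFBP2 was lost without vehicle replicate 1 (adjusted p = 0.0561) or dicoumarol replicate 3 (0.0657). The magnolol call was lost in 8 of 12 alternatives, including without vehicle replicate 1 or 2 (0.193 and 0.150) and without magnolol replicate 1, 2 or 3 (0.117, 0.0776 and 0.179). The call with both compounds held in all 12.

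IGFBP3 (ENSSSCG00000058216, chromosome 18, 50003022 to 50010690, plus strand) was low in DFAT and rose with rosiglitazone. Its libraries had 33.8, 27.1 and 34.6 normalized counts with vehicle and 118, 86.5 and 81.5 with rosiglitazone, a 2.91-fold rise (log2 1.54, SE 0.30, adjusted p = 0.00185). The lowest rosiglitazone library stood above the highest of the 12 others. With dicoumarol it had 25.3, 16.3 and 14.7, with magnolol 35.1, 49.4 and 37.9, and with both 19.6, 28.1 and 11.5. The dicoumarol libraries lay below vehicle and the magnolol libraries above it, neither being called (adjusted p = 0.323 and 0.612). With both compounds the adjusted p was 0.132, and 0.0460 without combination replicate 2.

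IGFBP4 (ENSSSCG00000017472, chromosome 12, 21965502 to 21980945, minus strand) fell with rosiglitazone and was not called with the other treatments. It had 11469, 11735 and 10098 normalized counts with vehicle and 7013, 8256 and 5674 with rosiglitazone, a fall with no overlap (log2 -0.68, SE 0.14, adjusted p = 0.0028). The 9 libraries with dicoumarol, magnolol or both ranged from 9212 to 12488. In all 5 groups the library numbered 3 was the lowest.

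Neither receptor was called against vehicle in DFAT. IGF1R (ENSSSCG00000030560, chromosome 1, 137387825 to 137691058, minus strand) had group means of 12364 ± 578 with rosiglitazone to 14996 ± 1689 with both compounds, and 14116 ± 801 with vehicle. Its rosiglitazone libraries lay below all vehicle libraries (log2 -0.19, adjusted p = 0.166), and quantile normalization called that fall (adjusted p = 0.0476). IGF2R (ENSSSCG00000004044, chromosome 1, 7368103 to 7472548, minus strand) had means of 25779 to 27436 normalized counts, and every group overlapped vehicle. IGFBP6 (ENSSSCG00000000261, chromosome 5, 18352400 to 18357225, plus strand) had means of 49.0 ± 7.04 with both compounds to 71.1 ± 12.3 with magnolol. Its libraries with both compounds lay below all vehicle libraries (log2 -0.51, adjusted p = 0.107), and quantile normalization called that fall (adjusted p = 0.0366). IGFBP7 (ENSSSCG00000008913, chromosome 8, 56279895 to 56357822, minus strand) had means of 47448 ± 3291 with vehicle to 53862 ± 5188 with both.

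Rosiglitazone against the combination gave more calls in the DFAT family than either did against vehicle, with 3 higher and 3 lower of 9 and 17% of all genes called, 8.24% higher and 8.79% lower. IGFBP3 was 4.86-fold higher (log2 2.28, SE 0.30, adjusted p = 3.61e-05), IGFBP2 1.41-fold higher (log2 0.49, adjusted p = 0.000372) and IGF1 1.28-fold higher (log2 0.36, adjusted p = 0.00387). IGFBP5 was 1.61-fold lower (log2 -0.69, SE 0.081, adjusted p = 1.32e-05), IGFBP4 was lower too (log2 -0.68, adjusted p = 0.00238) and IGF1R 1.21-fold lower (log2 -0.27, adjusted p = 0.0260). The IGF1R call was lost in 6 of 12 alternatives, among them without combination replicate 3 (log2 -0.18, adjusted p = 0.137) and without rosiglitazone replicate 1 or 3 (0.0764 and 0.0645). The block called IGFBP7 lower as well (log2 -0.15, adjusted p = 0.0443).

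**Figure D3:**
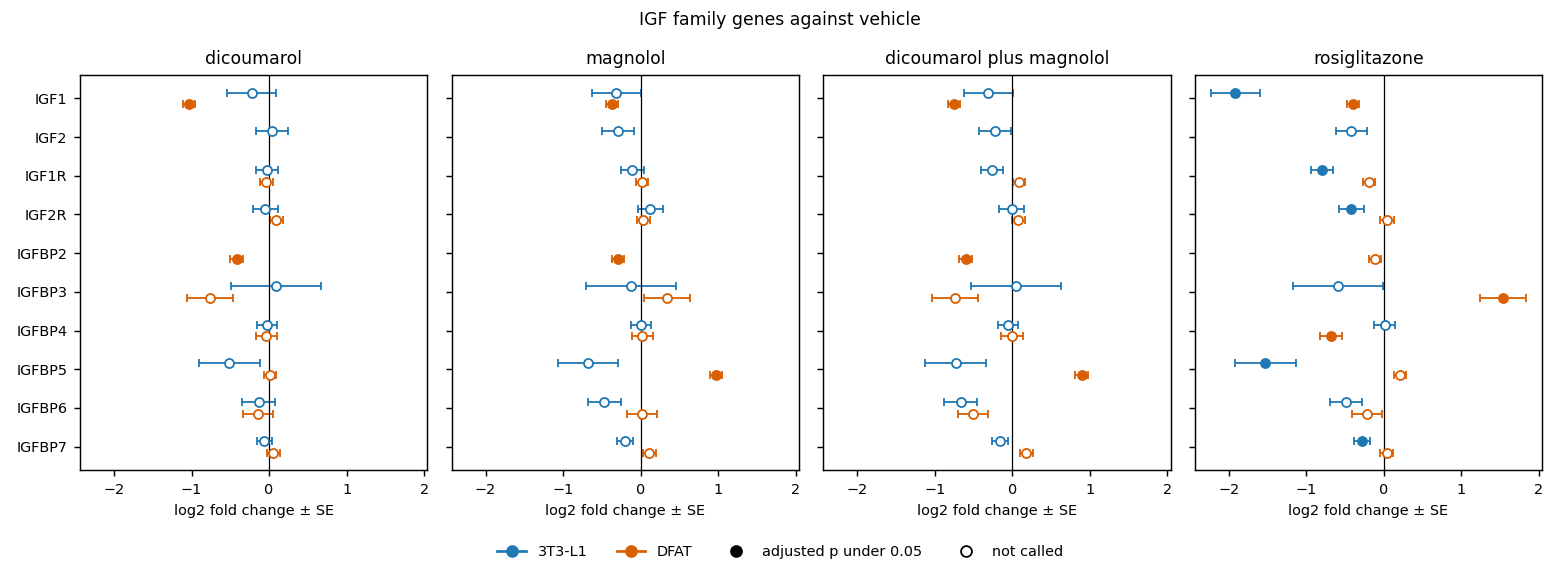
Log2 fold change against vehicle (x axis) of each gene (y axis) for the 4 treatments, with SE as bars, in 3T3-L1 (blue) and DFAT (orange); filled points are called at an adjusted p under 0.05. With rosiglitazone the filled points farthest from 0 are mouse Igf1 (-1.92), DFAT IGFBP3 (1.54) and mouse Igfbp5 (-1.53). DFAT IGF1 with dicoumarol (-1.03) and DFAT IGFBP5 with magnolol (0.97) come next. IGF2 in DFAT and Igfbp2 in 3T3-L1 have no point.

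The same treatment was compared between systems by testing the difference of the log2 fold changes over 9369 genes with 1 row in each table. Species, cell type, induction mix, sequencing depth and table differ together and cannot be told apart. With rosiglitazone 6 of 8 shared IGF genes differed, where 38.8% of all genes did. The fall in IGF1 was larger in 3T3-L1 (difference -1.52, SE 0.33, adjusted p = 0.00126), as was that in IGF1R (-0.61, SE 0.16, adjusted p = 0.00473). The estimates of IGFBP3 (log2 -0.59 in 3T3-L1, 1.54 in DFAT) and IGFBP5 (-1.53 and 0.21) had opposite signs in the systems. Of these, the -0.59 and the 0.21 were not called (adjusted p = 0.444 and 0.131). The differences were -2.13 (SE 0.65, adjusted p = 0.0120) for IGFBP3 and -1.74 (SE 0.40, adjusted p = 0.00234) for IGFBP5. IGFBP4, which fell in DFAT, differed by 0.69 (SE 0.19, adjusted p = 0.00439). The IGF2R difference was -0.46 (adjusted p = 0.0468).

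With magnolol 1 of 8 differed, where 3.23% of genes did: IGFBP5, at log2 -0.68 in 3T3-L1 and 0.97 in DFAT (difference -1.65, SE 0.40, adjusted p = 0.0298). With both compounds it was again IGFBP5 alone (-1.62, SE 0.40, adjusted p = 0.0128), against 11.7% of all genes. For dicoumarol 0 of 8 differed, 1 at an unadjusted p under 0.05, against 0.149%. For IGF1 with dicoumarol, log2 -0.22 in 3T3-L1 and -1.03 in DFAT, the call depended on the replicate block: the difference of 0.81 had an SE of 0.33 and an adjusted p of 0.782 without it, and an SE of 0.11 and an adjusted p of 3.37e-05 with the block in both tables. The block also called IGF1 (0.45, adjusted p = 0.0027), IGF1R (-0.35, adjusted p = 0.0113) and IGFBP7 (-0.34, adjusted p = 0.00968) with both compounds. It further called IGFBP7 with magnolol (-0.31, adjusted p = 0.0352) and with rosiglitazone (-0.32, adjusted p = 0.00734). The numbers pair the vehicle libraries with the treated ones in 3T3-L1. In DFAT same-numbered pairs with a vehicle library had correlations from -0.306 to 0.209, so pairing there is uncertain. The IGFBP5 difference with magnolol rests on 3T3-L1 levels of under 40 normalized counts. It was lost without 3T3-L1 vehicle replicate 2 (-1.38, adjusted p = 0.117) or 3 (0.0612), or magnolol replicate 1 (0.113), 2 (0.0815) or 3 (0.0655). The difference with both compounds was lost without 3T3-L1 vehicle replicate 2 (-1.35, adjusted p = 0.0646).

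A list of 14 genes was drawn up for IGF availability and processing. It held PAPPA and PAPPA2, which cleave binding proteins, the stanniocalcins STC1 and STC2, and the proteases HTRA1, HTRA3, CTSD, MMP2 and MMP14. The others were the growth hormone receptor GHR, IGFALS, ESM1, IGFBP1 and IGFBPL1. Of the 14, 11 were tested in 3T3-L1 and 11 in DFAT. In 3T3-L1 rosiglitazone raised 1 and lowered 6, where 20.3% of all genes were called higher and 19.9% lower. Htra3, a secreted serine protease, rose from 636 ± 186 to 1150 ± 81.8 normalized counts (log2 0.89, adjusted p = 0.000556). Stc1 fell the most, from 467 ± 28.1 to 176 ± 64.9 (log2 -1.47, SE 0.25, adjusted p = 0.000221). Pappa, Mmp2, Mmp14, Ghr and Ctsd were also lower, by log2 -0.49 for Ctsd to -1.18 for Pappa; these were named after their values were seen. The median of the 11 was -0.73, against -0.00 for all genes. Only Mmp14 was called with both compounds (log2 -0.39, adjusted p = 0.0467), and 0 of 11 with dicoumarol or magnolol.

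In DFAT the same list split. GHR, which drives IGF1 production in many tissues, rose with all 4 treatments. It averaged 377 ± 29.1 normalized counts in the vehicle group, 534 ± 34.1 under dicoumarol, 673 ± 77.2 under magnolol, 954 ± 90.2 under both and 913 ± 21.8 under rosiglitazone (log2 0.50, 0.83, 1.33 and 1.27, the largest adjusted p being 0.00714). IGF1 was lower in these same groups. STC1 fell with dicoumarol (103 ± 5.32 to 37.5 ± 13.4 normalized counts, log2 -1.51, adjusted p = 0.0069), and ESM1, an endothelial proteoglycan, fell with both compounds (414 ± 84.1 to 143 ± 8.74, log2 -1.51, adjusted p = 0.000166). Rosiglitazone raised 2 of 11, with GHR ahead of STC2 (log2 1.00), and lowered 5, led by HTRA3 (750 ± 86.3 to 485 ± 51.4, log2 -0.63, adjusted p = 0.000164). Over all genes 5.8% were called higher and 5.02% lower with rosiglitazone. Counts for dicoumarol, magnolol and both were 1, 2 and 2 higher and 3, 0 and 2 lower of 11, where 1.94%, 4.22% and 10.2% of all genes were called.

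**Figure D4:**
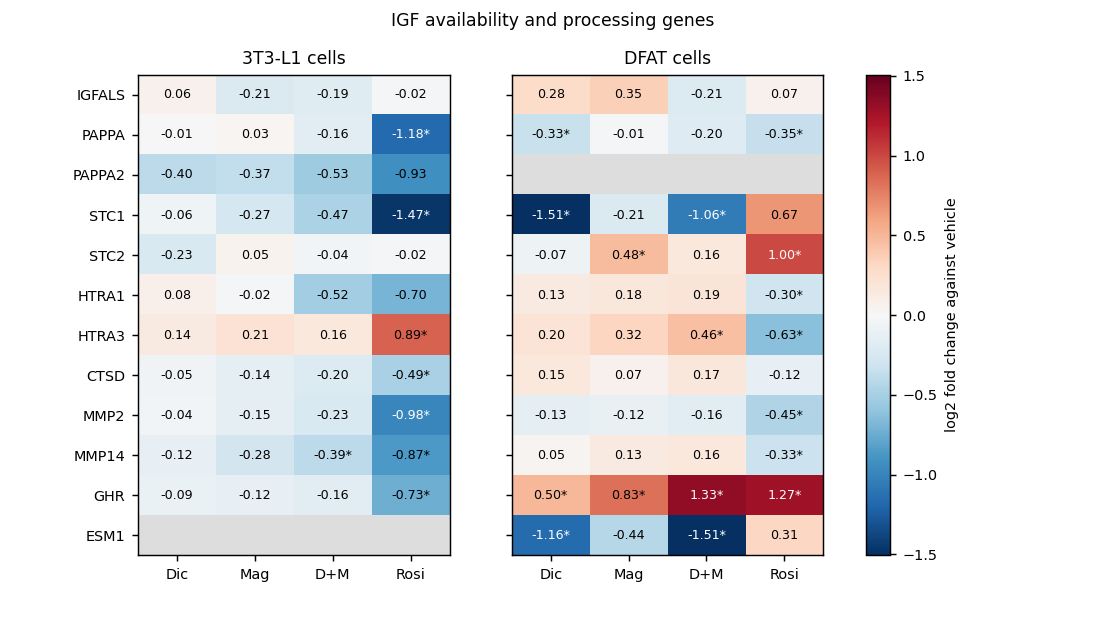
Log2 fold change against vehicle of the genes listed for IGF availability and processing, by treatment (columns) and gene (rows), in both systems. Asterisks mark an adjusted p under 0.05 and grey cells were not tested. GHR is -0.73 with rosiglitazone in 3T3-L1 and 1.27 in DFAT.

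Of the 19 genes next to the receptor (adaptors, kinases and inhibitors), 18 were tested in 3T3-L1 and 15 in DFAT. Irs2, an adaptor of the insulin and IGF1 receptors, rose with rosiglitazone in both systems, from 1195 ± 188 to 2917 ± 119 normalized counts in 3T3-L1 (log2 1.30, SE 0.11, adjusted p = 7.2e-07) and from 4589 ± 347 to 7147 ± 534 in DFAT (log2 0.64, SE 0.064, adjusted p = 1.82e-06). It rose with both compounds in 3T3-L1 (log2 0.45, adjusted p = 0.0300), while in DFAT magnolol lowered it (log2 -0.24, adjusted p = 0.0394). Grb14, an adaptor that inhibits the insulin receptor, fell in 3T3-L1 with magnolol (337 ± 36.9 to 226 ± 16.5, log2 -0.57, adjusted p = 0.0313), with both (log2 -0.71, adjusted p = 0.00265) and with rosiglitazone (to 168 ± 22.0, adjusted p = 1.33e-05). In DFAT the largest falls were SOCS3, a cytokine-induced inhibitor, with both compounds (1667 ± 146 to 981 ± 180, log2 -0.78, adjusted p = 0.0013) and PIK3R1, a PI3K regulatory subunit, with rosiglitazone (log2 -0.41, adjusted p = 0.00211). Totals with rosiglitazone were 3 higher and 5 lower of 18 in 3T3-L1, where 40.1% of all genes were called (20.3% higher, 19.9% lower), and 2 and 2 of 15 in DFAT, where 10.8% were (5.8% higher, 5.02% lower).

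A further list of 6 held H19, the noncoding gene beside Igf2, the Igf2 mRNA binders Igf2bp1 to Igf2bp3, and the regulators Plag1 and Hmga2. In 3T3-L1 rosiglitazone lowered 4 of 6, where 19.9% of all genes were called lower, Hmga2 the most (3630 ± 1153 to 1248 ± 384 normalized counts, log2 -1.53, SE 0.23, adjusted p = 9.74e-05). The other treatments called 0 of 6, and in DFAT 0 of 3 tested were called against vehicle.

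Patterns across the 15 libraries of a table were compared by Pearson's r on the log2 scale, over genes with a symbol and a mean of at least 100. The libraries share 5 groups, so r mainly follows group means, and it is given as a description. Among the closest to mouse Igf1, of 11570 genes, were Adamts1 (r = 0.979) and Lrp4 (0.976). Closest to DFAT IGF1, of 9926, were PDE7B (0.919), EBF2 (0.900) and PNRC1 (0.886). DFAT IGFBP3, the gene of the family with the widest span there (2.30 on the log2 scale), was closest to APLN (0.936), TPI1 (0.935) and TMEM44 (0.934).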

How the data were processed

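Per the labels' protocols, poly(A) RNA libraries marked strand with dUTP. The submitters' processing notes name bcl2fastq 2.19.1.403, STAR, DESeq2 and GRCm38 for all samples; a pig build was not named. The deposited signal values are the authors' counts per gene after division by DESeq2 size factors, 1 table per species. Deposited mouse starts matched GENCODE M21 (GRCm38) for only 2.68% of 24070 genes, lengths for 95.8%, so coordinates are given as deposited, on a build not settled here, and are not those of the RefSeq GRCm38.p6 promoters, which covered all 10 mouse genes. Whole reads could not be recovered (81.0% to 82.1% of low values whole within 0.02 in 3T3-L1, 89.4% to 90.6% in DFAT, up to 20 reads), so no count test was run; depth was estimated from the value of 1 read.

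limma 3.58.1 (R 4.3.3) was fitted on log2(value + 1), minimum mean 10, all 5 groups in 1 model, with a variance trend and two-sided tests. Differences between systems used a Welch-type statistic on the limma estimates, adjusted over 9369 genes. Exon lengths for levels per kilobase came from GENCODE M21, as the union of all annotated exons of a gene. Figures were drawn with Python 3.11.15 and matplotlib 3.10.9. The fit was tested on simulated data whose libraries varied independently, so that test does not cover the correlation by replicate number. Same-numbered libraries of different groups correlated in all 30 pairs in 3T3-L1 (0.106 to 0.462; other numbers, median -0.142). In DFAT all pairs were over 0.1 only among magnolol, the combination and rosiglitazone (0.105 to 0.345). Pairs there with a vehicle or dicoumarol library ran from -0.306 to 0.209 (other numbers, median -0.0650). The labels do not say what a number marks. Members and lists were chosen with earlier results of these data known. The named genes are members called against vehicle, and the largest called rise and fall per list and comparison; 1 gene with a pattern like that of mouse Igf1 is not reported here. Alternatives were a pseudocount of 10, no filter, quantile normalization, the replicate block, no trend, only the compared groups, and each library left out; leaving out all 3T3-L1 libraries numbered 3 was chosen after seeing the data.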

Additional observations from a re-analysis of the deposited data

Results flagged for a closer look

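The changes against vehicle differed between 3T3-L1 and DFAT by a test of the difference itself, adjusted over 9369 genes, in 8 instances, given as the log2 fold change in 3T3-L1 minus that in DFAT. For IGFBP5 it was -1.65 with magnolol (adjusted p = 0.0298) and -1.62 with dicoumarol plus magnolol (adjusted p = 0.0128). With rosiglitazone it was -1.74 for IGFBP5 (adjusted p = 0.00234), -1.52 for IGF1 (adjusted p = 0.00126) and -0.61 for IGF1R (adjusted p = 0.00473). It was also -0.46 for IGF2R (adjusted p = 0.0468), -2.13 for IGFBP3 (adjusted p = 0.0120) and 0.69 for IGFBP4 (adjusted p = 0.00439). The IGF2R difference was lost without 3T3-L1 vehicle replicate 2 (adjusted p = 0.125) or 3 (0.0839), 3T3-L1 rosiglitazone replicate 1 (0.235) or 3 (0.0516), DFAT vehicle replicate 2 (0.0608) or 3 (0.0864), or DFAT rosiglitazone replicate 1 (0.110). The IGFBP3 difference was lost without 3T3-L1 vehicle replicate 2 (adjusted p = 0.0542) or rosiglitazone replicate 3 (0.0592).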

How the results depend on the processing

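Of 126 tests of a gene in a comparison within a system, 26 were called: 19 in every alternative and 7 lost in at least 1, while 16 others gained a call in at least 1, and no called value changed sign. Counts of IGF genes called stayed within 1.5 times except as follows. In 3T3-L1 rosiglitazone against vehicle gave 3 with no filter, with no trend, with only the compared groups or without all libraries numbered 3, and 3 to 4 with 1 library left out. Rosiglitazone against the combination gave 1 with only the compared groups and 1 to 3 with 1 library left out. In DFAT the combination against magnolol gave 0 with no filter, no trend or only the compared groups and 0 to 1 with 1 library left out. Quantile normalization gave 5 for rosiglitazone against vehicle and 2 for the combination against dicoumarol. Dicoumarol gave 1 to 2 with 1 library left out. The cause was not tested.

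The replicate block gave 3 IGF genes for the combination against vehicle and 4 for rosiglitazone against it in 3T3-L1, and 3 for the combination against dicoumarol and 2 against magnolol in DFAT. For differences between systems the block gave 1 with dicoumarol, 2 with magnolol and 4 with both. How many of all genes differed between systems under the block was not counted. With 1 library left out magnolol gave 0 to 1 and both 1 to 2. Over all genes the block called 79 for dicoumarol, 780 for magnolol, 2124 for both, 569 for both against dicoumarol and 5234 for rosiglitazone against both in 3T3-L1. In DFAT it called 670, 1360 and 2643 against vehicle and 893 and 290 for the combination against dicoumarol and magnolol. In DFAT, where pairing of vehicle or dicoumarol libraries by number is uncertain, it also called IGFBP7 higher with both compounds (log2 0.18). For both against dicoumarol it called IGF1 higher (0.27) and IGFBP2 lower (-0.18). These counts were 0, 193, 821, 4 and 2879 in 3T3-L1 and 288, 626, 1508, 348 and 92 in DFAT as reported. Without the trend, magnolol in 3T3-L1 gave 80 genes, the combination against dicoumarol 0 and the DFAT combination against magnolol 57. With only the compared groups these were 102, 0 and 44, rosiglitazone against both gave 1465 in 3T3-L1 and 1336 (of 2523) in DFAT, and DFAT rosiglitazone gave 936 (of 1604). Quantile normalization gave 8 for the 3T3-L1 combination against dicoumarol. With 1 library left out the lowest counts were 22 for magnolol, 286 for both and 1077 for rosiglitazone against both in 3T3-L1, and 153, 400, 175 and 44 in DFAT for dicoumarol, magnolol, and both against dicoumarol and magnolol. Mouse Igfbp5 and Igfbp2 are limited by counts under 40 per library.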

Other observations

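In 3T3-L1 all 5 libraries numbered 3 had less Igfbp3 than the other 10 (663 to 988 against 1337 to 3451 normalized counts). The same held for 106 of 15723 tested genes (0.674%). In DFAT all 5 libraries numbered 1 had less IGFBP7 than the other 10, which held for 5 of 14819 genes (0.0337%). Each of these genes was picked out after its values were seen.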
